A study of Mus musculus with 36 samples.

Results

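Blood vessels of the foetal mouse gonad were followed through 10 genes, Pecam1, Cdh5, Kdr, Flt1, Tek, Tie1, Vegfa, Efnb2, Nrp1 and Sox17, chosen by symbol from the count tables of embryonic stages E11.5 and E12.5. All 10 are among the 21699 genes in the tables, and all 10 passed the filter on low counts at both stages, together with 14217 genes in total at E11.5 and 14348 at E12.5. Each stage had 4 genotypes with 3 libraries each. XX and XY controls are labelled wild type, and XX KO and XY KO embryos are homozygous for a deletion of the miR-17-92 cluster (called MiRC1 in the labels), made by recombining a floxed allele, from a C57BL/6 × 129S4/SvJae background, with a CAG-cre transgene that is active in most tissues. The deletion is therefore not restricted to the vessels or to the gonad, and each library pooled 2 pairs of gonads. At E11.5 the RNA came from the gonad with the adjoining mesonephros, and at E12.5 from the gonad alone. The library kits also differed, so the stages were not compared with each other.

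Endothelial cells line the vessels and are recognised by the junction proteins PECAM1 and VE-cadherin (Cdh5) and by the receptors for VEGF and angiopoietin. In the XY gonad, endothelial cells move in from the mesonephros when testis formation begins and assemble a large artery below the surface, the coelomic vessel, which the early ovary lacks. VEGFA signalling, Notch signalling and ephrin-B2 (Efnb2) are known for their roles in that sprouting and in arterial identity. In bulk RNA, fewer cells of a type and less RNA per cell cannot be told apart.

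The deleted cluster makes 6 microRNAs, whose mature forms are shown because their seed (bases 2 to 8 from the 5′ end, in capitals) is the stretch that pairs with target RNAs. They are given 5′ to 3′ from RefSeq (GRCm38.p6), all on the forward strand of chromosome 14.
miR-17-5p: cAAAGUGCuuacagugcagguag
miR-20a-5p: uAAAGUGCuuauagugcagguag
miR-18a-5p: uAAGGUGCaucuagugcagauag
miR-19a-3p: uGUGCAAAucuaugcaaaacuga
miR-19b-3p: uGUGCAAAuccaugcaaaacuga
miR-92a-3p: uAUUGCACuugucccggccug
The first of them in genome order lies at chr14:115043684-115043706 and the last at chr14:115044476-115044496. They fall into 4 seed families, since miR-17-5p shares its seed with miR-20a-5p and miR-19a-3p with miR-19b-3p.

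The longest annotated 3′ UTR of each gene (GENCODE, GRCm38) was searched on the transcript strand for the reverse complement of each seed, which is GCACTTT for miR-17-5p and miR-20a-5p, GCACCTT for miR-18a-5p, TTTGCAC for miR-19a-3p and miR-19b-3p, and GTGCAAT for miR-92a-3p. Vegfa, the main growth factor for endothelial cells, held 1 match, Efnb2 held 2, and Pecam1 and Tie1 held 1 each. No match to these letters was found in Cdh5, Kdr, Flt1, Tek, Nrp1 or Sox17. Hence 4 of 10 genes held a match for at least 1 family, against 33.6% of the 13546 genes tested at E11.5 that have an annotated 3′ UTR. The 5 matches are printed on the transcript strand, with the match in capitals.
Vegfa, miR-17-5p/miR-20a-5p: actcttcgaggaGCACTTTgggtccggagg
Efnb2, miR-18a-5p: ccaagggaactcGCACCTTgttcttgggca
Efnb2, miR-19a-3p/miR-19b-3p: agtgtcatccccTTTGCACtgtaatgagga
Pecam1, miR-18a-5p: agcacttaaagcGCACCTTgatcttccttt
Tie1, miR-18a-5p: tacatcggagacGCACCTTcacttaccagt
The Vegfa stretch lies at chr17:46018679-46018708 on the reverse strand, within the 3′ UTR of 1865 bases. Those of Efnb2 lie at chr8:8620539-8620568 and chr8:8617730-8617759, that of Pecam1 at chr11:106654518-106654547 and that of Tie1 at chr4:118478406-118478435, all on the reverse strand. A match of 7 letters is a description of the sequence, and binding was not measured in these libraries.

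Total counts per library lay between 17150620 and 34077443 at E11.5 and between 11877379 and 44155275 at E12.5. Xist was at or above 1340 CPM (counts scaled to the library size, with TMM normalization) in each XX library and at or below 4.72 CPM in each XY library, as the labels state. Mir17hg, the host gene of the cluster, was counted over its whole length, most of which lies outside the microRNAs, and was higher in each KO library than in each control library of its sex and stage, so its count does not check the deletion. The defining endothelial markers were present throughout. The summed level of 12 endothelial markers, which include 6 of the 10 genes, was 760 to 1137 CPM at E11.5 and 647 to 948 CPM at E12.5, with no marker at 0. The labels do not say whether libraries with 1 number share a litter or batch, and replicates are known only as separate pools, so p-values measure the spread between these pools.

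Levels of different genes were compared only per kilobase of exon. In XY controls at E11.5 Vegfa stood first with 76.2 CPM per kilobase, followed by Cdh5 with 30.9 and Efnb2 with 23.8. At E12.5 the order of the first pair was turned, with 44.0 for Cdh5 and 34.6 for Vegfa in XY controls, whereas XX controls of that stage had 46.4 for Vegfa and 31.5 for Cdh5. Flt1, which encodes a VEGF receptor that can act as a decoy, and Sox17, which encodes a transcription factor of arterial endothelium, took the last places in both control groups at both stages, with 1.69 to 3.24 CPM per kilobase.

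**Figure D1:**
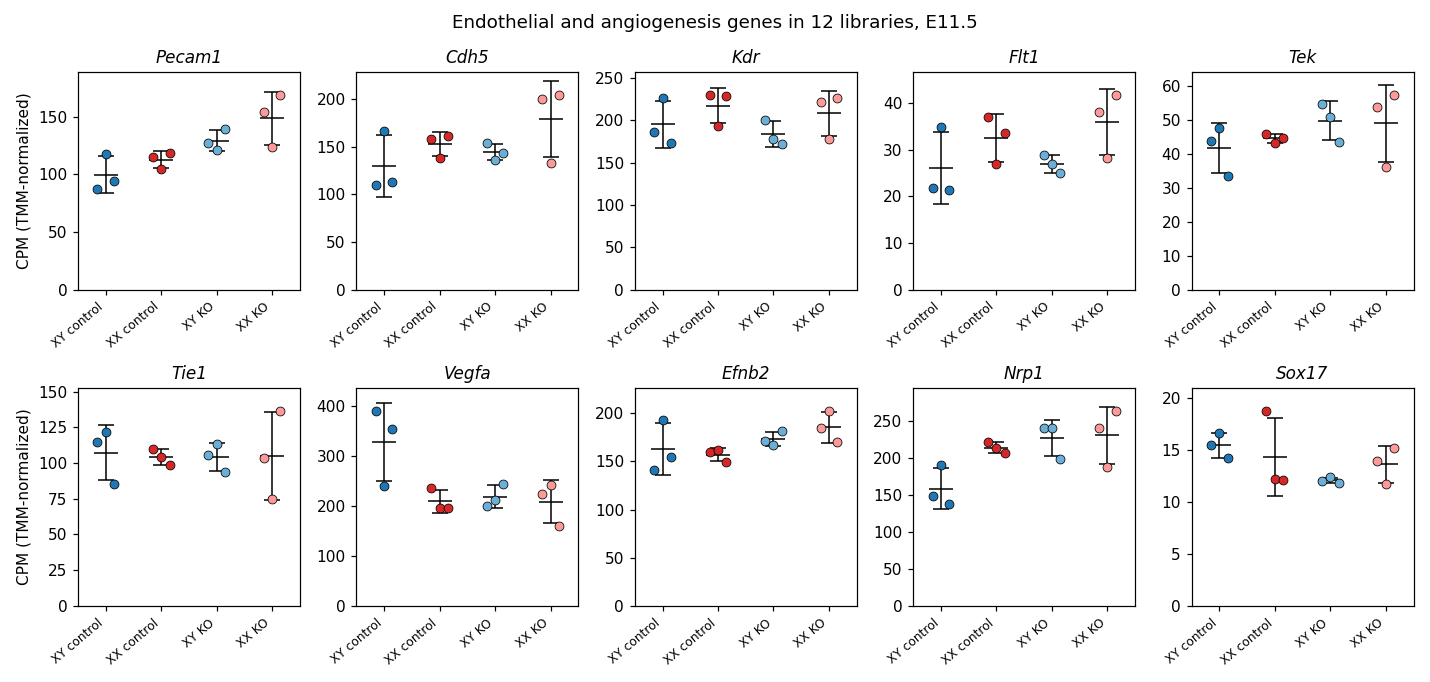
Levels of the 10 genes at E11.5 in CPM with TMM-normalized library sizes (vertical axes, starting at 0), by genotype (horizontal axes). Each point is a library and the black marks are the mean and SD of 3 libraries; Vegfa is high in XY control replicates 1 and 3 (388 and 353 CPM), and replicate 2 (239 CPM) lies with the other genotypes.

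At E11.5 the clearest values were those of Vegfa and of Nrp1, which encodes neuropilin 1, a co-receptor for VEGFA and for semaphorins. The comparison of XY KO with XY control gonads asks what the loss of the cluster did while the sex of the gonad is being set. In it 2 of the 10 genes were called (FDR under 0.05, edgeR quasi-likelihood test), 1 in each direction, against a background of 12.7% of all genes tested. Vegfa fell and Nrp1 rose. The RNA of this stage includes the mesonephros. The summed level of 6 gonadal somatic markers was 1109 to 1180 CPM in the XY controls and 893 to 1085 CPM in XY KO gonads. For 9 markers of mesonephric tubules and duct it was 378 to 542 CPM and 365 to 414 CPM. The part of tissue composition in the Vegfa and Nrp1 results was not tested.

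Vegfa was at 388, 239 and 353 CPM in XY control replicates 1, 2 and 3 and at 199, 212 and 243 CPM in XY KO replicates 1, 2 and 3. The groups overlapped, since XY control replicate 2 lay below XY KO replicate 3. On the log2 scale the change was -0.58 (standard error, SE, 0.18, FDR = 0.0427, edgeR quasi-likelihood test), with means of 327 ± 78.0 and 218 ± 22.8 CPM (SD, n = 3 each). This call was lost in 13 of 18 alternative fits, with FDR between 0.00381 and 0.172. It was lost without XY control replicate 1 (FDR = 0.172) or 3 (FDR = 0.120), without XY KO replicate 1 (FDR = 0.146), 2 (FDR = 0.119) or 3 (FDR = 0.0527), without any 1 of the 3 XX controls (FDR from 0.0503 to 0.0572) and without XX KO replicate 1 (FDR = 0.0522).

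Nrp1 was at 148, 190 and 137 CPM in the XY controls and at 240, 241 and 198 CPM in XY KO gonads. Each XY KO library lay above each XY control library. Means were 158 ± 27.7 and 226 ± 24.5 CPM, and the log2 fold change was 0.51 (SE 0.14, FDR = 0.0224). The call was kept in 13 of 18 alternative fits and was lost without XY control replicate 1 or 3 or XY KO replicate 1 or 2 (FDR from 0.0827 to 0.0868) and with the compared groups alone in the fit (FDR = 0.0545).

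The other 8 genes were not called between XY KO and XY control gonads at this stage. Pecam1, at 87.1, 118 and 94.1 CPM in the XY controls and 127, 121 and 139 CPM in XY KO gonads, came nearest, with no overlap and a change of 0.37 on the log2 scale (SE 0.12) and FDR = 0.0604. Sox17 was lower in each XY KO library (11.8 to 12.4 CPM) than in each XY control library (14.2 to 16.7 CPM), with a log2 fold change of -0.36 and FDR = 0.170. Among the VEGF receptors, Kdr, the main signalling receptor, and Flt1 had log2 fold changes of -0.09 (95% interval -0.33 to 0.15) and 0.05 (-0.33 to 0.42). The angiopoietin receptor Tek and its relative Tie1 had 0.25 and -0.04. DESeq2 called 3 of the 10 genes, Pecam1, Vegfa and Nrp1, against 16.5% of all genes. Pecam1 was also called by edgeR without XY control replicate 2 (FDR = 0.00871), XX KO replicate 2 (FDR = 0.0432) or XX KO replicate 3 (FDR = 0.0496).

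In XX gonads at E11.5 the deletion went with 0 calls by edgeR among the 10 genes, against 3.27% of all genes called. DESeq2 also gave 0, against 5.47%. An unadjusted edgeR p under 0.05 was met by 2 (Pecam1 and Efnb2). The share of all genes at that unadjusted threshold was not counted, here or below. Pecam1 was at 115, 104 and 119 CPM in XX controls and 154, 123 and 169 CPM in XX KO gonads. All XX KO libraries lay above all XX control libraries, and the log2 fold change of 0.40 (SE 0.13, FDR = 0.103) was called only without XX KO replicate 2 (FDR = 0.0432) or without XY control replicate 2 (FDR = 0.0397). XX KO replicate 2 had the lowest summed endothelial level of the stage, 760 CPM, against 1014 and 1137 CPM in the other XX KO libraries. Vegfa, at 235, 195 and 196 CPM in XX controls and 223, 242 and 160 CPM in XX KO gonads, had a log2 fold change of 0.00 (95% interval -0.34 to 0.34).

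Between the sexes, XX and XY controls at E11.5 gave 0 calls by edgeR, against 0.886% of all genes, and 1 by DESeq2 (Vegfa), against 3.09%. In edgeR 2 genes had an unadjusted p under 0.05. Vegfa was lower in each XX control (195 to 235 CPM) than in each XY control (239 to 388 CPM), a difference of -0.65 on the log2 scale (SE 0.18, FDR = 0.112). Nrp1 was higher in each XX control (207 to 222 CPM) than in each XY control (137 to 190 CPM), a log2 fold change of 0.43 (FDR = 0.142). Without XY control replicate 2 the share of all genes called rose to 17.6% and the count was 4, with Vegfa (log2 fold change -0.83, FDR = 0.00301) lower and Nrp1 (0.58, FDR = 0.00826), Flt1 (0.59, FDR = 0.0228) and Cdh5 (0.46, FDR = 0.0483) higher in XX controls.

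Gonads of XX KO and XY KO embryos gave, at E11.5, 0 calls by either tool, against 0.0844% of all genes called by edgeR and 2.12% by DESeq2. An unadjusted edgeR p under 0.05 was met by 1 gene, Flt1. The interaction of sex and genotype, which is the effect of the deletion in XY minus that in XX gonads, also gave 0 calls by either tool. Of all genes, edgeR called 0.0352% and DESeq2 0.992%. The interaction had 2 genes at an unadjusted edgeR p under 0.05, Vegfa with -0.58 (SE 0.25, FDR = 0.349) and Nrp1 with 0.41 (SE 0.19, FDR = 0.388). A different effect of the deletion in XX and XY gonads was thus not shown for any of the 10 genes at this stage. The comparisons with XY controls share those 3 libraries.

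XY control replicate 2 stood apart in other genes as well. Its Mir17hg level was 17.6 CPM, against 44.6 and 39.4 CPM in the other XY controls. Malat1, a nuclear non-coding RNA, was at 585 CPM in it and at 1410.4 and 1301 CPM in the others, and was between 359 and 804 CPM in the other 9 libraries of the stage. Over the 12 libraries the genes whose log2 CPM followed Vegfa most closely were Mafg (Pearson r = 0.98), Trim11 (0.97), Adamts20 (0.96), Nup210l (0.95) and Malat1 (0.95), a description in which the same pair of XY controls carries the high values of both Vegfa and Malat1. The part of Malat1 or of RNA composition in the Vegfa result was not tested. Nrp1 ran opposite to Vegfa over the same libraries (r = -0.91).

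**Figure D2:**
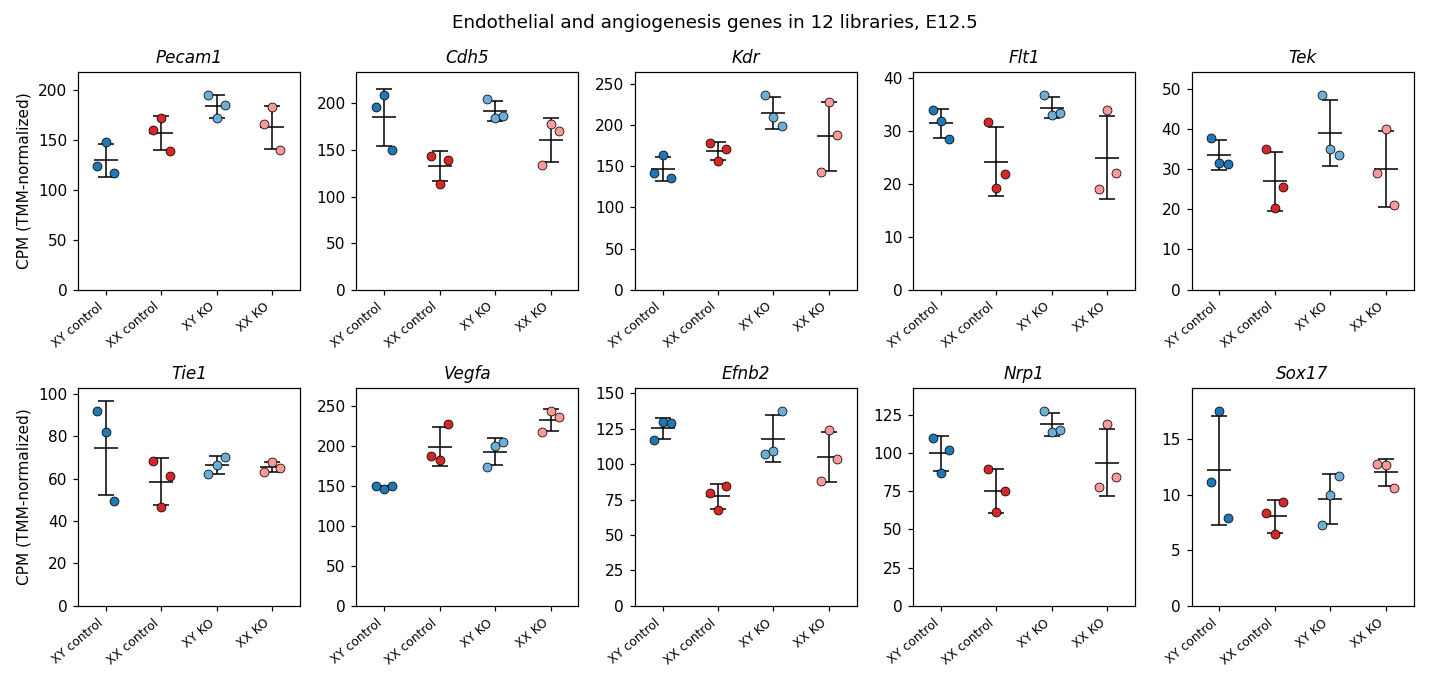
Levels of the 10 genes at E12.5, drawn in the same way (CPM on the vertical axes, starting at 0, with the mean and SD of 3 libraries in black). The 3 XY controls are the lowest libraries for Vegfa (146 to 150 CPM), and the 3 XX controls are below the 3 XY controls for Efnb2 and Cdh5.

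At E12.5 the controls differed in 3 of the 10 genes, against a background of 23.8% of all genes called. Cdh5 and Efnb2 were lower and Vegfa was higher in XX than in XY controls. Efnb2, whose product ephrin-B2 marks arterial endothelium, was at 79.7, 67.8 and 84.9 CPM in XX controls and 117, 130 and 129 CPM in XY controls. The groups did not overlap, and the log2 fold change was -0.69 (SE 0.14, FDR = 0.00248), a call that all 18 alternative fits kept.

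Cdh5 was at 144, 114 and 140 CPM in XX controls and 196, 209 and 150 CPM in XY controls, again with no overlap. Its log2 fold change of -0.48 (SE 0.15, FDR = 0.0295) was called in 12 of 18 alternative fits, and was lost without XX control replicate 2 (FDR = 0.130) or 3 (FDR = 0.0511) and without XY control replicate 1 (FDR = 0.0862) or 2 (FDR = 0.132). It was also lost with library size as the only scaling (FDR = 0.0585).

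Vegfa was at 188, 182 and 227 CPM in XX controls and 150, 146 and 149 CPM in XY controls. Each XX control lay above each XY control, a difference of 0.42 on the log2 scale (SE 0.12, FDR = 0.0153), and the call was lost without XX control replicate 3 (FDR = 0.0799) or XY control replicate 2 (FDR = 0.0546). The XX against XY values of Vegfa thus had opposite signs at the 2 stages, of which edgeR called the E12.5 value alone, and the difference between stages was not tested. Without XY control replicate 3, which had the lowest depth of the stage, Tie1 (log2 fold change -0.57, FDR = 0.0157) and Sox17 (-0.83, FDR = 0.0297) were also lower in XX controls. The count rose to 5 in that fit, where 20.5% of all genes were called. Nrp1, with a log2 fold change of -0.40 (FDR = 0.108), was called only without XX KO replicate 2 (FDR = 0.0460). Without XX control replicate 3 or XY control replicate 2 the count was 1, Efnb2, against 19.8% and 19.3% of all genes.

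The loss of the cluster in XY gonads at E12.5 went with higher levels of 3 genes, Pecam1, Kdr and Vegfa, and with no lower call, against a background of 20.6%. DESeq2 called the same 3, against 23.4% of all genes. Pecam1 was at 124, 148 and 117 CPM in the XY controls and 195, 172 and 185 CPM in XY KO gonads, with no overlap and a rise of 0.50 on the log2 scale (SE 0.13, FDR = 0.0151). Pecam1 is known in early germ cells too, and the summed level of 6 germ cell markers was 773 to 1078 CPM in the XY controls and 587 to 746 CPM in XY KO gonads, lower where Pecam1 was higher. Their part in the Pecam1 result was not tested.

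Kdr was at 142, 164 and 136 CPM in the XY controls and 237, 210 and 199 CPM in XY KO gonads. The groups did not overlap, with means of 147 ± 14.7 and 215 ± 19.2 CPM and a rise of 0.55 on the log2 scale (SE 0.15, FDR = 0.0183). Vegfa, the ligand of that receptor, was at 174, 200 and 205 CPM in XY KO gonads, above each XY control, and the log2 fold change was 0.38 (SE 0.12, FDR = 0.0321). None of the 3 calls held without XY control replicate 1 (FDR 0.0519, 0.0604 and 0.0621 for Pecam1, Kdr and Vegfa) or 3 (0.0629, 0.0671 and 0.0706). Without XY KO replicate 1 only Vegfa was called (Pecam1 0.0620, Kdr 0.0805), and Vegfa alone was lost without XY control replicate 2 (FDR = 0.102) or XY KO replicate 2 (FDR = 0.120) or 3 (FDR = 0.122).

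The genes that were lower in XX than in XY controls did not pass the test in XY KO gonads. Cdh5 was at 204, 184 and 187 CPM there, within the range of the XY controls, with a log2 fold change of 0.05 (95% interval -0.24 to 0.34). Efnb2 was at 107, 109 and 137 CPM, with -0.09 (-0.37 to 0.20). Nrp1 was higher in each XY KO library (114 to 127 CPM) than in each XY control (87.2 to 110 CPM), but with a log2 fold change of 0.25 it was not called (FDR = 0.346).

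In XX gonads at E12.5 the deletion went with 0 calls by edgeR or DESeq2 among the 10 genes, against backgrounds of 5.26% and 10.1%. The median log2 fold change of the 10 genes was 0.19, against 0.00 for all genes. The values of all 10 were above 0, but without XX KO replicate 2 those of Pecam1 (-0.04), Kdr (-0.02), Flt1 (-0.24) and Tek (-0.10) were below it, as were Flt1 and Tek without XX control replicate 2 (-0.10 and -0.01) and Pecam1 and Flt1 without XX control replicate 3 (-0.03 and -0.02). Efnb2 and Sox17 had an unadjusted p under 0.05. Efnb2 was at 88.4, 124 and 103 CPM in XX KO gonads, above each XX control, and the log2 fold change was 0.44 (SE 0.14, FDR = 0.0875), called only without XX KO replicate 1 (FDR = 0.0471). Sox17 was at 12.7, 12.7 and 10.6 CPM in XX KO gonads and 8.35, 6.46 and 9.38 CPM in XX controls, again without overlap, and the log2 fold change was 0.58 (SE 0.26, FDR = 0.202).

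Compared with each other at E12.5, the KO gonads of the 2 sexes gave 0 calls by either tool. Of all genes, edgeR called 0.153% and DESeq2 0.453%. An unadjusted edgeR p under 0.05 was met by 2 genes, Flt1 and Vegfa. Vegfa was higher in each XX KO library (217 to 243 CPM) than in each XY KO library (174 to 205 CPM), with a log2 fold change of 0.27 and FDR = 0.241. Without XX KO replicate 2, the deepest library, 12.7% of all genes were called and 2 of the 10, Flt1 (log2 fold change -0.75, FDR = 0.0275) and Nrp1 (-0.55, FDR = 0.0384).

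For the interaction at E12.5 the background was 12.9% of genes in edgeR and 15.8% in DESeq2, and 0 of the 10 were called by either tool. Pecam1 (0.45, FDR = 0.144), Efnb2 (-0.53, FDR = 0.111) and Sox17 (-0.92, SE 0.37, FDR = 0.125) had an unadjusted p under 0.05. Sox17 was called without XY control replicate 3 (-1.15, FDR = 0.0378).

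**Figure D3:**
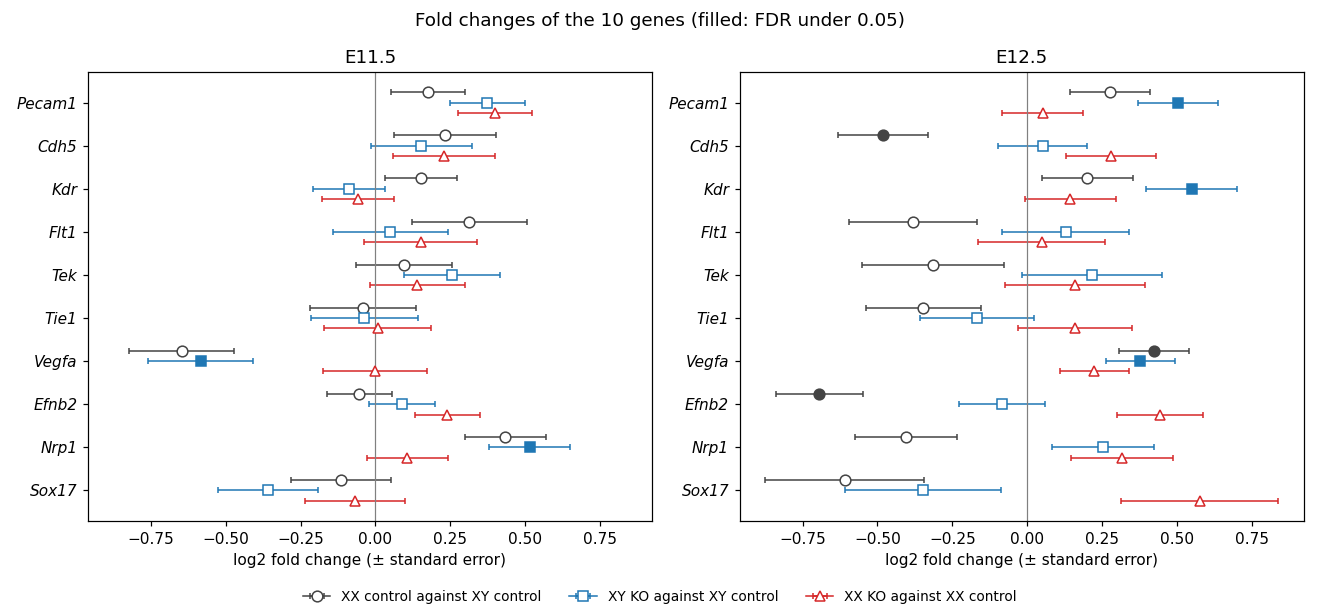
Log2 fold changes of the 10 genes with their standard errors (horizontal axes) at E11.5 and E12.5, for XX against XY controls (circles), XY KO against XY control (squares) and XX KO against XX control (triangles), with filled symbols for FDR under 0.05. Vegfa lies left of 0 at E11.5 and right of 0 at E12.5 in both comparisons with XY controls, and Efnb2 lies furthest left at E12.5 between the controls (-0.69).

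To set each gene against a reference of 3 endothelial genes in its library, its log2 CPM was taken minus the mean log2 CPM of Cdh5, Pecam1 and Tie1. Across the 12 libraries of E12.5 Pecam1 did not follow the other reference genes (Pearson r = 0.09 with Cdh5 and -0.08 with Tie1), while Cdh5 and Tie1 had r = 0.72. At E11.5 the same pairs had 0.86, 0.25 and 0.48. The reference is thus not a plain measure of endothelial RNA, and a difference on this scale can come from the reference. This gave 56 comparisons for 7 genes, of which 13 had groups that did not overlap. Over all genes tested, 20.3% of such comparisons on this scale did not overlap, so the count is near that share; 3 libraries against 3 cannot give an exact permutation p under 0.1 (two-sided), so none can pass 0.05. The 13 are therefore listed only as a description. On this scale Kdr was lower in the KO of both sexes at E11.5, by a difference of -0.26 in XY and -0.25 in XX gonads. Kdr itself had log2 fold changes of -0.09 and -0.06 in these comparisons, while Pecam1, a gene of the reference, had 0.37 and 0.40. The part of Pecam1 in the Kdr differences was not tested. At E12.5 Kdr was higher on this scale in XY KO gonads (0.40) and in XX controls (0.37), both against the XY controls. Efnb2 was lower in XX than in XY controls at E12.5 (-0.53) and Vegfa was higher (0.58). Sox17 was lower in XY KO gonads at E11.5 (-0.53) and higher in XX KO than in XX control gonads at E12.5 (0.41). Nrp1 was higher at E11.5 in XY KO gonads (0.34) and in XX controls (0.31), each set against the XY controls. Taken against XY KO gonads, the XX KO values were higher for Flt1 at E11.5 (0.25) and for Vegfa (0.43) and Sox17 (0.49) at E12.5.

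Across the 12 libraries of a stage, the genes that followed Cdh5 most closely at E11.5 were Sdc3 (r = 0.96), Cd93 (0.95), Adgrf5 (0.92), Coro2b (0.92) and Tspan18 (0.92). At E12.5 they were Tro (0.92), Pcdh12 (0.91), Sox7 (0.90), Mmrn2 (0.88) and Pde2a (0.87). Vegfa kept other company at E12.5, namely Rai2 (0.97), Krt7 (0.95), Lgi3 (0.95), Krt18 (0.94) and Rasa4 (0.94), with the keratin genes Krt7 and Krt18 known from epithelia. The summed level of 9 markers of mesonephric tubules and duct was 105 to 136 CPM in the XY controls and 299 to 438 CPM in the other 9 libraries of E12.5, and so was low where Vegfa was low. Their part in the Vegfa result was not tested.

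Beyond the 10 genes, the lists compared at E12.5 included arterial genes and genes of mural cells, the pericytes and smooth muscle cells that wrap vessels. Of 15 arterial and Notch genes 7 were lower and 0 higher in XX than in XY controls, where 12.4% of all genes were lower and 11.4% higher, with a median log2 fold change of -0.54 against 0.01 for all genes. Jag1, a Notch ligand, was at 12.1, 10.6 and 15.3 CPM in XX controls and 108, 76.8 and 88.4 CPM in XY controls, a difference of -2.85 on the log2 scale (SE 0.22, FDR = 2.41e-07). Sema3g, known from arterial endothelium, had a log2 value of -1.42 (FDR = 3.71e-05) and the chemokine gene Cxcl12 one of -2.23 (FDR = 9.78e-05).

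Mural genes showed the same direction between controls, with 7 of 10 lower, 0 higher and a median of -1.14. The lower direction was not particular to arterial and mural genes. Lists of 5 venous and 5 further angiopoietin pathway genes had 2 lower and 0 higher calls each. These were Nr2f2 (-0.83) and Nrp2 (-0.72), and Angptl2 (-0.51) and Svep1 (-1.01). Nr2f2 was called in all 12 fits that left out 1 library, while Nrp2 was lost in 3, Angptl2 in 2 and Svep1 in 4. Of 9 further VEGF family genes 3 were lower and 1 higher. Acta2, smooth muscle actin, was at 19.6, 25.0 and 36.6 CPM in XX controls and 168, 123 and 148 CPM in XY controls, with no overlap and a difference of -2.44 on the log2 scale (SE 0.26, FDR = 7.65e-06). Mcam (-1.01) and Cspg4 (-1.27), surface proteins of pericytes, were lower too. Acta2, Mcam, Cspg4, Jag1, Sema3g and Cxcl12 were called in all 12 fits that left out 1 library. Of 25 further endothelial identity genes 6 were called, a share near the 23.8% of all genes, and all 6 were lower, among them Vwf, the von Willebrand factor gene (-1.89, FDR = 2.32e-05), Gpr182 (-0.93) and Erg (-0.56), of which Erg was lost without XX control replicate 2 (FDR = 0.0659) or 3 (FDR = 0.0602) or XY control replicate 2 (FDR = 0.0877). Acta2, Cxcl12 and Jag1 are known from other cells as well, and the Sertoli cell and fetal Leydig cell markers moved with the same groups. The 8 Sertoli markers summed to 1510 to 2180 CPM in XY controls at E12.5 and to 19.5 to 76.4 CPM in the other 9 libraries, and the 5 Leydig markers to 822 to 1767 CPM and to 31.3 to 53.9 CPM. Their part in these lists was not tested.

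In XY KO gonads at E12.5, where 10.3% of all genes were lower and 10.3% higher, the arterial list had 5 lower and 0 higher calls (median -0.21), led by Jag1 (28.5, 25.9 and 33.4 CPM, log2 fold change -1.63, FDR = 4.18e-05), Cxcl12 (-1.60, FDR = 0.00158) and Acvrl1 (-0.76, FDR = 0.00422), a receptor of arterial endothelium. The mural list had 5 lower and 1 higher calls (median -0.44), with Acta2 at 45.8, 35.2 and 34.4 CPM (-1.93, FDR = 7.19e-05), Cspg4 at -0.90 and Tagln at -1.36, while Kcnj8, a potassium channel gene of pericytes, was higher (1.21, FDR = 0.0380). The Kcnj8 call was lost without XY control replicate 2 (FDR = 0.121) or 3 (FDR = 0.0989), XX KO replicate 3 (FDR = 0.0522) or XY KO replicate 2 (FDR = 0.0616) or 3 (FDR = 0.143). The identity list had 4 of 25 genes called, below the 20.6% of all genes, with Gpr182 (-1.24) and Vwf (-1.13) lower and Adgrl4 (0.83) and Cd93 (0.53) higher. The Cd93 call was lost in 6 of the 12 fits that left out 1 library, namely XX control replicate 3, XY control replicate 1 or 3 or any 1 of the XY KO libraries (FDR from 0.0512 to 0.193).

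In XX KO gonads 3.42% of all genes were higher and 1.85% lower than in XX controls. The arterial list had 2 higher and 0 lower calls, Jag1 (19.6, 31.4 and 19.4 CPM, log2 fold change 0.90, FDR = 0.0280) and Sema3g (0.68, FDR = 0.0421), and the mural list had 2 higher and 0 lower, Mcam (0.57, FDR = 0.0119) and Kcnj8 (1.62, FDR = 0.0309). Without XX KO replicate 2 these counts were 4 and 5, all higher, and the share of all genes called rose from 5.26% to 11.7%. Tip cell genes, active in the leading cells of sprouts, had 3 higher and 0 lower calls, Apln (0.78, FDR = 0.0260), Esm1 (1.14, FDR = 0.0168) and Pdgfb (0.78, FDR = 0.0425). All 7 of these calls were lost without XX control replicate 1 (FDR from 0.0541 to 0.124) or 2 (FDR from 0.0559 to 0.198). In these fits the share of all genes called fell to 0.244% and 0.585%. Some were also lost without a further library, Apln without XX KO replicate 1, Kcnj8 without XX KO replicate 3, and both Sema3g and Pdgfb without XX KO replicate 1 or 3, XY control replicate 2 or XY KO replicate 2, with Pdgfb lost without XX control replicate 3 too. Kcnj8 and Apln were called higher in the KO of both sexes, with Apln at 18.3, 20.6 and 17.0 CPM in XY KO gonads, from 8.75, 10.5 and 11.4 CPM in the XY controls (log2 fold change 0.87, FDR = 0.00296). The tip cell list as a whole did not rise in XY KO gonads, with 2 of 7 values above 0 and a median of -0.12. It had 1 higher call there (Apln) and 1 lower (Unc5b, -0.42, FDR = 0.0226), against 10.3% of all genes in each direction. The Unc5b call was lost in 4 of the 12 fits that left out 1 library.

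The interaction at E12.5 was called, with a negative sign, in 6 of 15 arterial and 6 of 10 mural genes and in none with a positive sign, where 7.05% of all genes had a negative and 5.90% a positive call. Its size was -2.53 (SE 0.29, FDR = 4.00e-05) for Jag1 and -2.82 (FDR = 9.26e-05) for Acta2. Between XX KO and XY KO gonads, 0 arterial, mural or further endothelial identity genes were called, against 0.153% of all genes. Without XX KO replicate 2, when 12.7% of all genes were called, 1 arterial and 1 identity gene were lower.

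**Figure D4:**
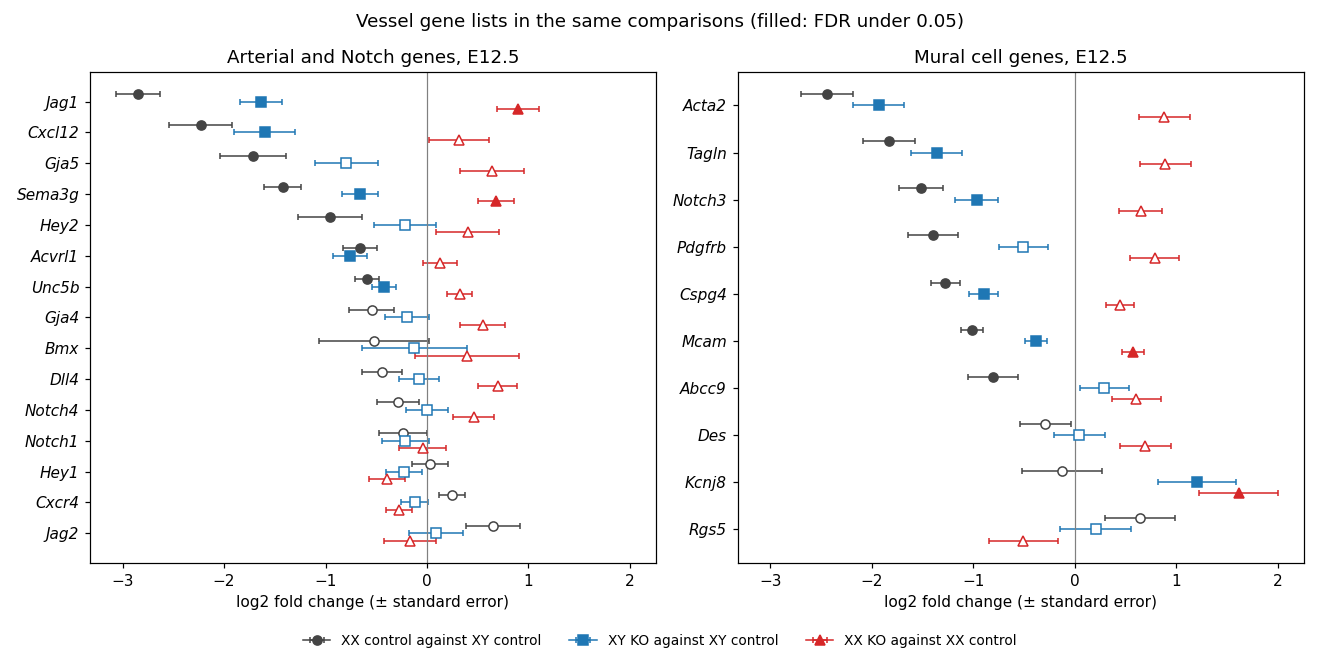
Log2 fold changes with standard errors (horizontal axes) of 15 arterial and Notch genes and 10 mural cell genes at E12.5, ordered by the difference between controls, with symbols as for the 10 genes and filled for FDR under 0.05. Circles and squares lie left of 0 for genes such as Jag1 (-2.85 and -1.63) and Acta2 (-2.44 and -1.93), and triangles lie right of it.

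At E11.5 these lists held fewer calls. In XY KO gonads 5.88% of all genes were higher and 6.81% lower. There 3 of 25 identity genes, near the 12.7% of all genes called, and 3 of 15 arterial genes were lower and 0 higher. Of 9 further VEGF family genes 2 (Sema3a and Sema3c) and of 10 mural genes 1 were higher and 0 lower. In XX KO gonads, with 3.27% of all genes called, the arterial list had 1 lower call. The VEGF family and mural lists had 1 higher call each there, and the identity list 0. Sema3a, which encodes a semaphorin that binds neuropilin 1, rose in the KO of both sexes, from 72.9, 91.9 and 87.7 to 141, 137 and 125 CPM in XY (log2 fold change 0.68, FDR = 0.00163) and from 76.2, 89.2 and 94.7 to 111, 138 and 120 CPM in XX gonads (0.51, FDR = 0.0230). Mcam rose in both as well (0.49 in XY and 0.70 in XX). The Notch target Hey1 fell in both (-0.35 and -0.43). The Sema3a call in XX gonads was lost without XX control replicate 1 or 2 or XX KO replicate 2 or 3 (FDR from 0.0712 to 0.105), and that of Hey1 without any 1 of the 6 XX libraries (FDR from 0.0574 to 0.136). In XY gonads Mcam was lost without XY control replicate 1 or XY KO replicate 1 (FDR = 0.0657 and 0.0606) and Hey1 without XY control replicate 1 or XY KO replicate 1 or 3 (FDR from 0.109 to 0.128). In XY KO gonads alone Jag2 (-0.79), Jag1 (-0.39, with overlapping groups), Gpr182 (-0.92), Fli1 (-0.51) and Egfl7 (-0.63) passed the test as lower. The difference of these effects from those in XX gonads was not called by the interaction. The Jag1 call was lost in 4 of the 12 fits that left out 1 library. Fli1 was lost without XY control replicate 1 or XY KO replicate 2 or 3 (FDR from 0.0604 to 0.0727), and Egfl7 without XY control replicate 1 or 3 or XY KO replicate 1 or 2 (FDR from 0.0571 to 0.104).

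Among 10 signals known to act on gonad vessels, 2 were higher and 4 lower in XY KO gonads at E11.5, where 5.88% of all genes were higher and 6.81% lower. Inhbb, which encodes the activin B subunit, fell by 1.42 (FDR = 0.000192) on the log2 scale. At E12.5 Fst, an activin antagonist, was at 273 CPM in XX and 1.51 CPM in XY controls (log2 fold change 7.57, FDR = 2.61e-10) and at 157 CPM in XY KO gonads. In both of these comparisons 9 of the 10 genes were called, 5 higher and 4 lower, against 23.8% and 20.6% of all genes. Fst, Wnt4, Bmp2 and Rspo1 of this list are also markers of pre-granulosa cells, and Cyp26b1 is also a Sertoli cell marker. The part of these cells in the count was not tested. Of 13 hypoxia response genes, many of which respond to the same low oxygen that raises Vegfa, 3 were higher and 1 lower in XX than in XY controls at E12.5, and 3 were higher and 2 lower in XY KO gonads, against 23.8% and 20.6% of all genes called. Adm, the gene of the vessel peptide adrenomedullin, was at 0.827 to 1.47 CPM in XY controls, 18.9 to 19.6 CPM in XY KO gonads and 14.3 to 30.1 CPM in XX controls. Ndrg1 rose from 24.6 ± 3.55 to 45.2 ± 2.59 CPM in XY KO gonads (log2 fold change 0.88, FDR = 0.000542). Ldha was higher there too (0.50, FDR = 0.0251), a call lost in 4 of the 12 fits that left out 1 library. Epas1 was lower in XX than in XY controls (-0.90, FDR = 0.000215) and lower in XY KO gonads (-0.46, FDR = 0.0274). Pgk1 was lower in XY KO gonads (-0.36, FDR = 0.0484), a call lost in 9 of the 12 fits that left out 1 library. The list thus did not move in a single direction.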

How the data were processed

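RNA was sequenced from XX and XY gonads of control and KO embryos, 3 libraries per genotype and stage. The authors mapped the read pairs to mm10 with Subread, and featureCounts then assigned them to genes. The deposited values are the raw counts, 1 table per stage. The annotation and the strand setting are not given in the sources used here, so counts of overlapping genes are uncertain. Another 12 columns with per-sample values, in tables of Foxl2 3′ UTR mutants, were left out.

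The 12 libraries of a stage entered a model of 4 genotype means in edgeR 4.0.16 (R 4.3.3, limma 3.58.1), using TMM normalization and the robust quasi-likelihood test. Genes with at least 1 CPM in at least 2 libraries were tested, and p-values were Benjamini-Hochberg adjusted (FDR) over all of them; genes under 0.05 were called. Standard errors were taken from the log2 fold change and the F statistic. Alternatives were RLE factors, library size alone, no filter, DESeq2 1.42.0, the compared groups alone, a replicate block and each library left out. On simulated counts for XY KO against XY control, over 14217 genes (E11.5) and 14348 genes (E12.5), the test called 81% and 67% of 100 genes changed 2-fold and 51% and 22% of 100 changed 1.5-fold.

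The genes and lists were chosen with earlier results of these data known. The text names the 10 genes, up to 3 called genes with the lowest FDR per list and comparison, and the 5 genes with the highest correlation to Cdh5 and to Vegfa. Kcnj8 and Cd93 in XY KO gonads were added after their values were seen. Epas1 and Pgk1 in XY KO gonads also lie outside that rule. Microscopy and single-cell data were not analysed here.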

Additional observations from a re-analysis of the deposited data

Results flagged for a closer look

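The effect of the deletion differed between XY and XX gonads, by the interaction of sex and genotype (edgeR quasi-likelihood test, FDR under 0.05), in 1 of 30 named genes at E11.5 and 19 of 41 at E12.5, against 0.0352% and 12.9% of all genes, and in none of the 10 endothelial and angiogenesis genes among them. The others were named because a comparison that shares libraries with the interaction was called. That choice alone can raise the number of interaction calls, so these counts cannot be compared with the share of all genes. At E11.5 it was Cyp26b1 (-1.13, FDR = 0.0215), which encodes an enzyme that degrades retinoic acid. At E12.5 the arterial genes were Jag1 (-2.53), Cxcl12 (-1.92), Sema3g (-1.34) and Acvrl1 (-0.89), and Unc5b (-0.75) stands in both the arterial and the tip cell list. The tip cell gene Pdgfb had -1.06. Mural genes were Acta2 (-2.82), Tagln (-2.25), Cspg4 (-1.34) and Mcam (-0.95), and Vwf had -1.80. Sema3a had 1.35 and Pgf, a relative of Vegfa, -1.98. Hypoxia response genes were Adm (4.26) and Ndrg1 (0.85), and signals were Fst (7.41), Bmp2 (2.17), Cyp26b1 (-4.37) and Pdgfra (-0.82). Acta2, for example, had a log2 fold change of -1.93 in XY and 0.89 in XX gonads, of which only the first was called. The call was lost in some of the 12 fits that left out 1 library, 8 for Cyp26b1 at E11.5, 9 for Pdgfra, 6 for Pdgfb and 3 for Acvrl1 at E12.5.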

How the results depend on the processing

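For XY KO against XY control at E11.5 the count of 2 called genes became 1 with library size only, 1 with no filter on low counts, 1 with the replicate block and 0 with the compared groups alone. In these fits 12.7%, 8.03%, 12% and 5.56% of all genes were called, in the same order. For XX against XY controls at E11.5 DESeq2 gave 1 in place of 0, against 3.09% of all genes. The cause of these changes was not tested. When single libraries were left out, the counts ran from 0 to 3 for XY KO against XY control, 0 to 1 for XX KO against XX control and 0 to 4 for XX against XY controls at E11.5. The share of all genes called in these fits ran from 5.73% to 20.4%, 1.01% to 4.66% and 0.394% to 17.6%. At E12.5 the counts ran from 0 to 3, 0 to 1 and 1 to 5 for the same comparisons, 0 to 2 for XX KO against XY KO and 0 to 1 for the interaction. The shares of all genes there ran from 14.6% to 22.4%, 0.244% to 11.7%, 19.3% to 25.7%, 0.0976% to 12.7% and 9.35% to 17.4%, in the same order. The deviations of same-numbered libraries from their group means correlated between -0.38 and 0.35. With 3 libraries per group these values cannot tell whether same-numbered libraries share a litter or batch. The main fit did not pair them. The replicate block also ended the Cdh5 call between controls at E12.5 (FDR = 0.0527). Of 1780 recomputed log2 fold changes of the 10 genes, 1725 kept their side of the threshold, 37 lost and 18 gained a call, and no called value changed its sign, while 87 uncalled values did, all of them within 0.24 of 0. Fits of gene lists without XY control replicate 2 or XX KO replicate 2 at E11.5, and without XY control replicate 3 or XX KO replicate 2 at E12.5, and of their named genes without each library in turn, were chosen after seeing the data. Of simulated 1.5-fold changes between XY KO and XY control gonads at E12.5, 22% were called. The simulation changed 100 genes per fold size, drawn at random from all 14348 tested, whereas 2951 genes were called in the data. Its share called therefore does not measure how often a change in the 10 genes would be missed. A gene that was not called was not shown to be unchanged.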
